A study of Mus musculus with 9 samples.

Results

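The DNA replication machinery was followed here through 59 genes, the subunits and close partners of the apparatus that marks replication origins, opens the helix, copies the DNA and supplies nucleotides and histones. They were chosen by name as replication factors, with earlier results of these data known. All 59 were found among the 21676 genes of the count table, and all 59 were among the 13807 genes with enough reads to be tested. The cells were B16, a mouse melanoma line, and total RNA was sequenced from 3 libraries of each of 3 groups. One group carried a control hairpin RNA, written shCotrol in the labels and called shControl here, and the others carried the hairpin shAD4-1 or the hairpin shAD4-2. The title of the study names the receptor ADGRL4, whose level was not analysed here, so the hairpin labels have no check from a targeted gene. All groups share the B16 background and the carriage of a hairpin, no untreated parent was among the libraries, and each hairpin stands for 1 knockdown derivative. No dose, time point or drug enters the labels.

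DNA replication is prepared in G1, when the origin recognition complex, CDC6 and CDT1 load the MCM2-7 helicase onto origins, a step called licensing. In S phase the kinase CDC7-DBF4 and the partners CDC45 and GINS turn the loaded helicase on, polymerase alpha with primase starts each new strand, and the sliding clamp PCNA, placed by the RFC clamp loader, holds polymerases delta and epsilon to the template. Many of these genes are transcribed in waves around the start of S phase under E2F factors, which is why their transcripts are widely read as a signature of cycling tumour cells.

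Across the 9 libraries 31.3 to 36.9 M reads fell in genes. The 8 melanocytic markers examined (Mitf, Tyr, Tyrp1, Dct, Pmel, Mlana, Sox10 and Slc45a2) had reads in every library. Their summed level was 4698 to 5422 FPKM (fragments per kilobase of gene, scaled to depth) with shControl, 4067 to 4167 FPKM with shAD4-1 and 4450 to 4862 FPKM with shAD4-2. By the test used below 7 of the 8 were lower with shAD4-1 (median -0.25 on the log2 scale), and with shAD4-2 2 were higher and 2 lower. Over all tested genes 32.3% were called lower with shAD4-1, and 34.2% higher and 34.8% lower with shAD4-2. Markers of leukocytes, endothelium and keratinocytes summed to at most 0.216 FPKM per list. Of these markers Itgam, Csf1r, Adgre1, Kdr, Krt5, Krt14 and Krt1 were not in the count table, so the sums rest on the others. Vwf, an endothelial marker at no more than 0.197 FPKM, was the only one tested. It was called higher with each hairpin, by 0.92 and 1.75 on the log2 scale. Fibroblast markers summed to 0.783 to 1.01 FPKM in the shControl libraries, 1.61 to 1.90 FPKM in the shAD4-1 libraries and 1.97 to 2.26 FPKM in the shAD4-2 libraries, nearly all from Col1a1, Col1a2 and Pdgfra, with 13 reads of Col3a1 and 1 of Lum over all libraries. Col1a1 and Col1a2 were called higher with each hairpin, by 0.70 and 2.62 (log2) with shAD4-1 and 0.92 and 3.08 with shAD4-2. Pdgfra was called with neither, at 0.366 FPKM with shControl, 0.415 with shAD4-1 and 0.367 with shAD4-2. Col3a1 and Lum had too few reads to be tested, and Dcn was not in the count table. The part of these marker changes in the results was not tested. The share of reads from mitochondrially encoded genes was 2.45 ± 0.156% (SD, n = 3) with shControl, 3.74 ± 0.104% with shAD4-1 and 3.72 ± 0.150% with shAD4-2. Without those 13 genes in the table, all 41 members called with shAD4-1, all 52 called with shAD4-2 and all 46 called between the hairpins kept their calls. Replicate 1 of shControl stood apart: its counts differed from those of the other control libraries by 12.4 and 18.1 times the counting noise (chi-square per degree of freedom), and theirs from each other by 3.44 times. Without it 35 members were called higher with shAD4-1 in place of 32, and 49 between the hairpins in place of 44. The calls newly made without replicate 1 of shControl were Orc2, Gins1, Lig1 (lower) and Tipin with shAD4-1 (adjusted p = 0.0102, 0.0453, 0.0437 and 0.045). Between the hairpins they were Gins1, Rfc1, Rfc2, Rfc3 and Chaf1b, all higher with shAD4-2 (adjusted p = 0.0444, 0.0187, 0.0195, 0.0359 and 0.0259). The calls lost without it were those of Pold3 with shAD4-1 and Rpa3 with shAD4-2.

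Replication transcripts made up a larger part of the RNA with each hairpin. The 59 genes took 0.298%, 0.284% and 0.281% of the reads in the shControl libraries, 0.334%, 0.331% and 0.332% with shAD4-1, and 0.402%, 0.404% and 0.399% with shAD4-2. The groups did not overlap, and the order from control to shAD4-1 to shAD4-2 held for the libraries of all 3 groups. In bulk RNA a larger share of cells in S phase and more transcript per cell cannot be told apart.

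With shAD4-1, 32 of the 59 genes were higher than with shControl and 9 were lower, at a Benjamini-Hochberg adjusted p of edgeR's quasi-likelihood test under 0.05, and 18 did not pass. Over all tested genes 32.7% were called higher and 32.3% lower in that comparison. The members' median change was 0.19 on the log2 scale, a fold of 1.14, beside a median of -0.01 over all tested genes. Single genes ran from -0.53 (Tk1) to 1.30 (Cdc6). Only Cdc6, Mcm4 and Rpa2 were called and at least 2-fold higher, where 5.99% of all tested genes were. On the log2(FPKM + 1) scale 1 member reached that size.

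With shAD4-2 the tally was 48 higher, 4 lower and 7 not called, against 34.2% higher and 34.8% lower over all tested genes. The median change was 0.44 on the log2 scale, a fold of 1.36, beside -0.01 for all tested genes, and the range ran from -0.22 (Rfc5) to 1.96 (Cdc6). At least 2-fold higher were 10 genes, namely Cdc6, Mcm4, Rpa2, Rrm2, Cdc45, Slbp, Clspn, Mcm8, Mcm3 and Tyms, where 6.39% of all tested genes were called at that size. The count of 4 lower genes was 2 to 7 over the alternatives, and that of 10 was 6 on the log2(FPKM + 1) scale. Both comparisons rest on the same 3 control libraries.

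The hairpins were therefore also set against each other directly. Of the 59 genes 44 were higher with shAD4-2 than with shAD4-1, 2 were lower (Orc3 and Orc4) and 13 did not pass, where 13.4% of all tested genes were called higher and 14% lower. The median difference was 0.30 on the log2 scale beside -0.00 over all tested genes, and the largest was 0.71, for Rrm2. So 46 of the 59 genes differed between the hairpins by more than the spread between libraries.

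**Figure D1:**
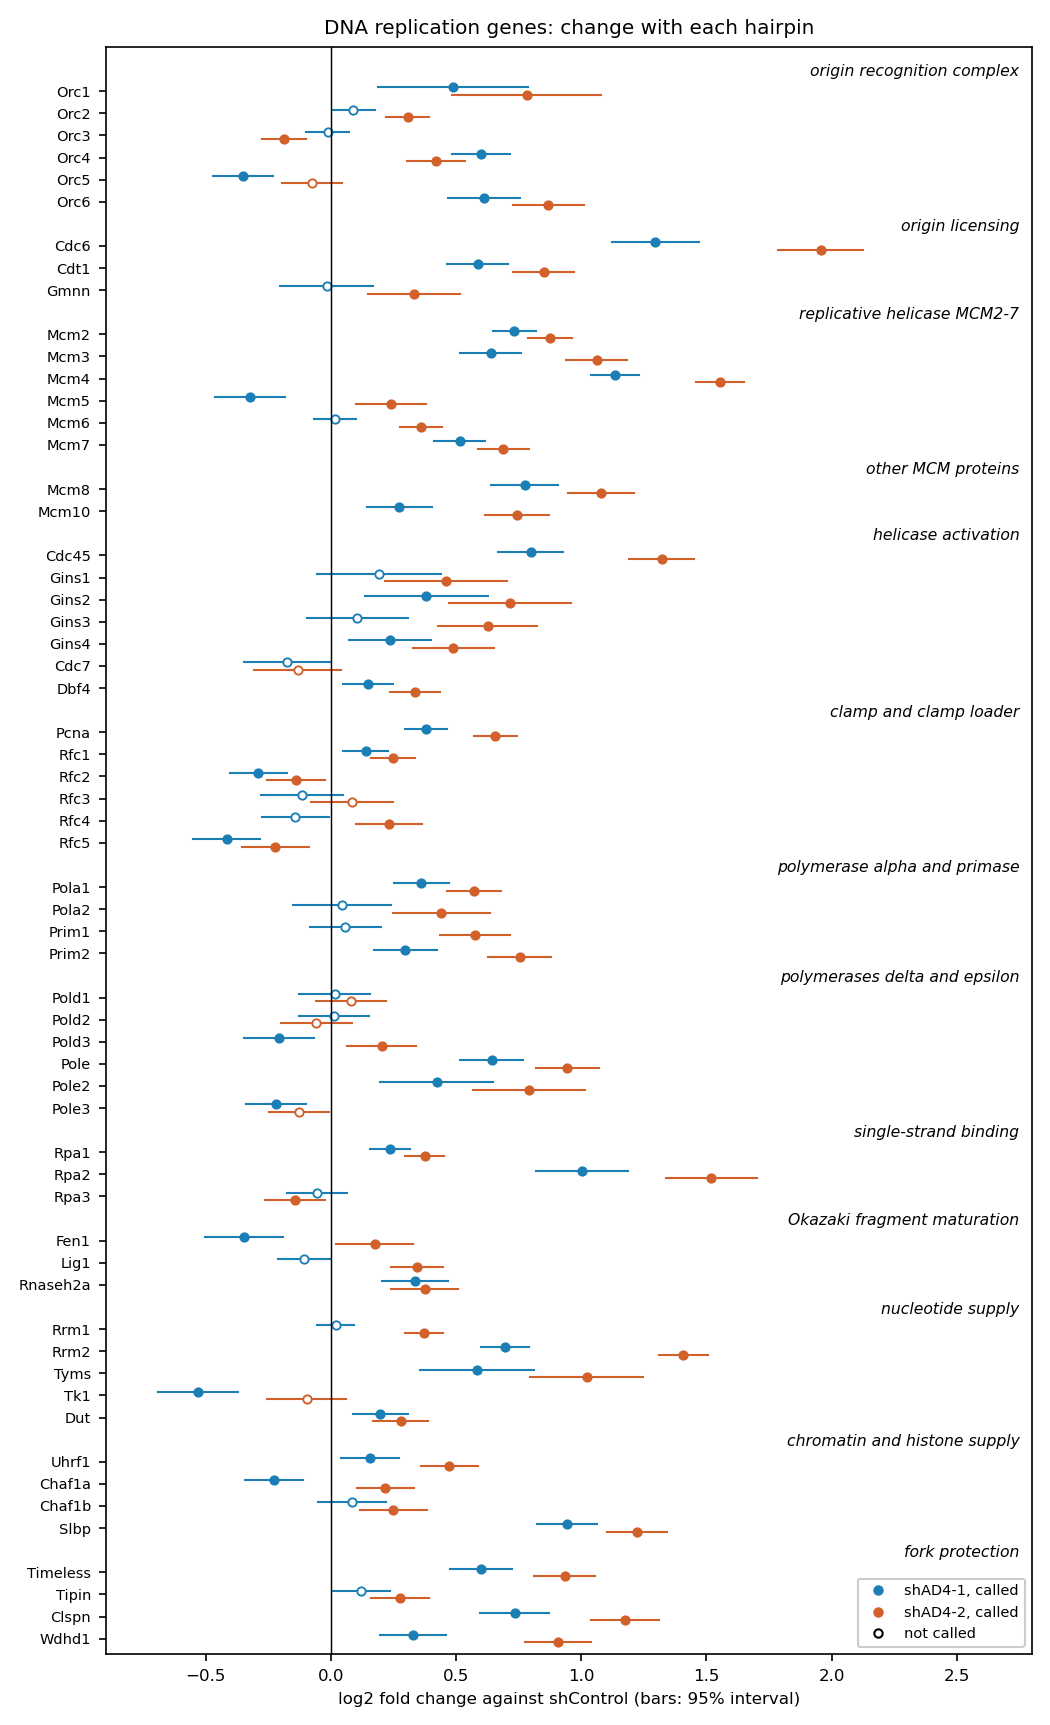
Change of each of the 59 replication genes against shControl, as log2 fold change (points) with its 95% interval (bars), blue for shAD4-1 and orange for shAD4-2, with open points for changes that did not pass the test. Cdc6 lies farthest to the right with each hairpin, at 1.30 and 1.96, and Mcm5, Pold3, Fen1 and Chaf1a lie left of 0 with shAD4-1 and right of 0 with shAD4-2.

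The stretches upstream of these genes were searched for the letters that E2F factors are known to prefer. RefSeq windows of 250 bases before to 50 bases after the transcription start (build GRCm38.p6, another build than the GRCm39 of the counts) were found for 50 of the 59 genes by symbol. One of the octamers TTTGGCGC, TTTCGCGC, TTTCCCGC and TTTGCCGC, on either strand, was present in the windows of 18 of these 50 genes, a share of 36%. The same search found one in 4.6% of the 10936 tested genes with a window, and in 2.6% of all 27025 genes with a window. The box CCAAT, on either strand, was in 58% of the 50 genes, 43.1% of the tested genes and 41.1% of all genes with a window. TTTGAA, the cell cycle homology region of many late cell cycle genes, was also searched on either strand and was in 14% of the 50 genes and 14.4% of the tested genes. The median GC content of the windows was 61.8% for the members and 60.3% for the tested genes. A match of letters is a description and not a bound site.

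The first 6 stretches below hold an E2F octamer, in capitals, and are shown because their genes span the responses seen: Cdc6 and Orc1 were higher with each hairpin, Mcm5 moved in opposite directions, Mcm6 was called only with shAD4-2, Orc3 was lower with shAD4-2, and Rfc3 was called with neither. Each is 100 bases, read 5′ to 3′ on the strand of the gene. The octamers overlap in Mcm5, and in the first run of capitals of Mcm6. The last base before the start closes the stretches of Orc1 at chr4:108579354-108579453 (plus strand), Orc3 at chr4:34614943-34615042 (minus strand) and Rfc3 at chr5:151651209-151651308 (minus strand). Those of Cdc6 at chr11:98907967-98908066 (plus strand), Mcm5 at chr8:75109312-75109411 (plus strand) and Mcm6 at chr1:128359731-128359830 (minus strand) lie farther upstream.
Cdc6: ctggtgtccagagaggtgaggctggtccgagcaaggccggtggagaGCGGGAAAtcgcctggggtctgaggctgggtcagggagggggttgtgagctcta
Orc1: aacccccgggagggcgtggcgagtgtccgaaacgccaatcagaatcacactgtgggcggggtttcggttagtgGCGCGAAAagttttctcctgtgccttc
Mcm5: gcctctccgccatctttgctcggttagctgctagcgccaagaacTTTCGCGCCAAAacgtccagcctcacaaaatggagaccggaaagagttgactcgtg
Mcm6: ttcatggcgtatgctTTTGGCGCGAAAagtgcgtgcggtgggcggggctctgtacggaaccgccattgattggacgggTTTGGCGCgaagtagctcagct
Orc3: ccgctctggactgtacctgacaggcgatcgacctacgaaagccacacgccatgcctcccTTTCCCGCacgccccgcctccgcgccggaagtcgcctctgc
Rfc3: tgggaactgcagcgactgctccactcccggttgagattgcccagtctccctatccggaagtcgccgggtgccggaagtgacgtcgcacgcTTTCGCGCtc

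Genes with an octamer were found among those that rose, those that fell and those not called. The 18 genes with one had median changes of 0.26 with shAD4-1 and 0.60 with shAD4-2 on the log2 scale, and 10 and 15 of them were called higher. The 32 genes without one had medians of 0.14 and 0.37, and 17 and 25 of them were called higher. CCAAT stood in the windows of 70.4% of the 27 genes with a window that were higher with shAD4-1, of 25% of the 8 that were lower and of 53.3% of the 15 not called. With shAD4-2 the shares were 65% of 40 higher, 33.3% of 3 lower and 28.6% of 7 not called. These groups are small, and the differences between them were not tested. Of the genes at least 2-fold higher with shAD4-2, Rpa2, Rrm2, Cdc45, Slbp, Clspn, Mcm8 and Mcm3 had CCAAT in their windows. Cdc6, with the largest rise, and Tyms had none, and Mcm4 had no window. The next 3 stretches, with CCAAT or its complement in capitals, end at the base before the start and belong to 3 of the genes with the largest rises: Rpa2 at chr4:132768260-132768359, Rrm2 at chr12:24708154-24708253 and Clspn at chr4:126556880-126556979, all on the plus strand.
Rpa2: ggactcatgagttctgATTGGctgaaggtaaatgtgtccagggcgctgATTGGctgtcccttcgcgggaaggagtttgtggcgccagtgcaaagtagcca
Rrm2: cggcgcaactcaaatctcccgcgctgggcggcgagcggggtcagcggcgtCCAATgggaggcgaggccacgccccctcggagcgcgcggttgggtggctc
Clspn: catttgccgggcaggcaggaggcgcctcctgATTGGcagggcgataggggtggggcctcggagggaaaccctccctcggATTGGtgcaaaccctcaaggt

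Origin licensing held the largest change of the set. Cdc6, the ATPase that helps the origin recognition complex to load the helicase, stood at 7.97, 8.35 and 7.69 CPM (counts scaled to library size with TMM factors) with shControl, at 18.2, 21.0 and 19.7 CPM with shAD4-1, and at 29.3, 31.0 and 33.0 CPM with shAD4-2. No libraries overlapped between groups. The rise was 1.30 ± 0.0828 (SE, log2) with shAD4-1, or 2.46-fold (adjusted p = 1.47e-10), and 1.96 ± 0.0813 with shAD4-2, or 3.88-fold (adjusted p = 2.97e-13). The hairpins differed by 0.66 ± 0.0741 (adjusted p = 5.45e-06), the second largest difference between them among the 59 genes. Per length, Cdc6 was nonetheless scarce, at mean levels of 1.72, 4.05 and 6.41 FPKM in the 3 groups. Cdt1, its partner in loading, rose by 0.59 and 0.85 (log2). Gmnn, which encodes geminin, the inhibitor of CDT1, changed by -0.02 with shAD4-1, without passing the test, and rose by 0.33 with shAD4-2.

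Within the origin recognition complex, which binds origins, the 6 subunits did not move together. Orc1, the subunit that is itself degraded after S phase begins in many cells, had the lowest mean level of all 59 genes per length, 1.59 FPKM with shControl. It read 5.20, 4.90 and 3.89 CPM with shControl, 5.79, 6.69 and 7.07 CPM with shAD4-1 and 9.12, 7.54 and 7.28 CPM with shAD4-2. All 6 hairpin libraries lay above the control libraries, with rises of 0.49 ± 0.142 (adjusted p = 0.00587) and 0.78 ± 0.141 (adjusted p = 7.94e-05), and the hairpins did not differ past the threshold (0.29, 95% interval 0.01 to 0.58, adjusted p = 0.12).

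Orc4 was 1 of the 2 genes higher with shAD4-1 than with shAD4-2. Its libraries read 71.0, 68.2 and 67.3 CPM with shControl, 102, 102 and 109 CPM with shAD4-1, and 89.0, 86.1 and 101 CPM with shAD4-2. Both hairpin groups lay wholly above the control, by 0.60 ± 0.055 (adjusted p = 2.19e-08) and 0.42 ± 0.0553 (adjusted p = 2.04e-06), and they differed by -0.18 ± 0.0543 (shAD4-2 minus shAD4-1, adjusted p = 0.0211). This last call was lost without replicate 3 of shAD4-1, at an adjusted p of 0.103, and likewise without replicate 1 or replicate 2 of shAD4-2, at 0.103 and 0.127.

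Orc3 was the other. It read 102, 96.8 and 97.3 CPM with shControl, 98.2, 99.8 and 96.0 CPM with shAD4-1 and 87.3, 88.2 and 84.8 CPM with shAD4-2. The control and shAD4-1 libraries overlapped (-0.01, adjusted p = 0.803), and the shAD4-2 libraries lay below all others, by -0.19 ± 0.0415 against shControl (adjusted p = 0.000573) and -0.18 ± 0.0415 against shAD4-1 (adjusted p = 0.00417). Among the remaining subunits, Orc6 rose by 0.61 and 0.87, Orc2 rose by 0.31 with shAD4-2 (0.09 with shAD4-1, adjusted p = 0.06), and Orc5 fell by 0.35 on the log2 scale with shAD4-1 and did not pass with shAD4-2 (-0.08). In FPKM the subunits stood far apart in every group. Orc2 held 45.5% of the complex's summed FPKM with shControl and Orc1 held 1.53%, a ratio of 30.0 between the highest and the lowest subunit, which was 22.7 with shAD4-1 and 21.6 with shAD4-2.

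The MCM2-7 helicase, the ring of 6 different subunits that unwinds the template, rose as a sum but not evenly. The summed level of the 6 transcripts was 149.6 ± 8.73 FPKM (SD, n = 3) with shControl, 208.4 ± 4.09 FPKM with shAD4-1 and 253.8 ± 5.29 FPKM with shAD4-2. With shAD4-1, 4 subunits were higher, 1 was lower and 1 was not called, and with shAD4-2 all 6 were higher. Over all tested genes 32.7% were higher and 32.3% lower with shAD4-1, and 34.2% were higher with shAD4-2.

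Mcm4 changed most. It read 44.3, 41.6 and 41.2 CPM with shControl, 96.4, 91.2 and 91.3 CPM with shAD4-1, and 121, 126 and 126 CPM with shAD4-2. The groups were far from overlapping, with rises of 1.13 ± 0.0459, or 2.19-fold (adjusted p = 2.48e-13), and of 1.55 ± 0.0459, or 2.93-fold (adjusted p = 2e-15). Between the hairpins the difference was 0.42 ± 0.0435 (adjusted p = 2.47e-06). Mcm2 was the most abundant subunit per length, at 48.2 FPKM with shControl. Its libraries read 166, 159 and 150 CPM with shControl, 269, 261 and 258 CPM with shAD4-1 and 284, 301 and 285 CPM with shAD4-2, rises of 0.73 ± 0.0413 (1.66-fold, adjusted p = 2.49e-11) and 0.87 ± 0.0414 (1.83-fold, adjusted p = 1.86e-12). Mcm3 rose by 0.64 and 1.06, and Mcm7 by 0.51 and 0.69.

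Mcm5 and Mcm6 did otherwise. Both have E2F octamers in the stretches printed above, but so do the windows of Mcm3 and Mcm7, which rose with each hairpin. The window of Mcm2 had none, and Mcm4 had no window. Mcm5 read 50.8, 48.5 and 42.2 CPM with shControl, 37.3, 38.0 and 37.7 CPM with shAD4-1 and 53.1, 54.0 and 60.1 CPM with shAD4-2. The shAD4-1 libraries lay below every control library and the shAD4-2 libraries lay above every one. Mcm5 fell by 0.32 on the log2 scale with shAD4-1 (SE 0.0668, adjusted p = 0.00034), rose by 0.24 ± 0.0658 with shAD4-2 (adjusted p = 0.00336), and differed between the hairpins by 0.56 ± 0.0665 (adjusted p = 8.55e-06). Mcm6 was at 116 ± 2.56 CPM with shControl and 117 ± 3.04 CPM with shAD4-1, a change of 0.02 with a 95% interval of -0.07 to 0.10 (adjusted p = 0.738), and rose by 0.36 to 149 ± 3.83 CPM with shAD4-2 (adjusted p = 1.96e-07). The hairpins differed in Mcm6 by 0.34 (adjusted p = 6.57e-06).

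The make-up of the helicase transcripts shifted accordingly. Mcm4 went from 8.11% of the summed FPKM with shControl to 12.3% with shAD4-1 and 13.5% with shAD4-2. Mcm5 went from 9.40% to 5.18% and 6.31%, and Mcm6 from 18.0% to 12.5% and 13.1%. The highest subunit stood 3.98 times above the lowest with shControl, 7.12 times with shAD4-1 and 5.33 times with shAD4-2. These shares describe transcripts and not protein, and the complex itself holds its subunits in equal number.

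**Figure D2:**
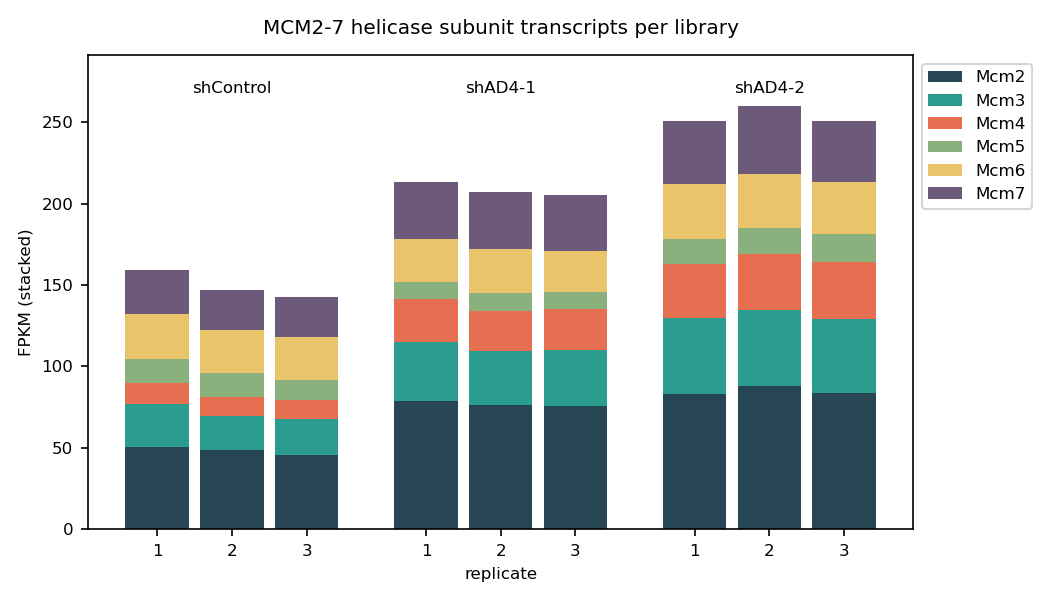
Level of the 6 MCM2-7 transcripts in each library, in FPKM, stacked by subunit, for the 3 replicates of shControl, shAD4-1 and shAD4-2. The summed height rises from 149.6 to 208.4 to 253.8 FPKM on average, while the Mcm5 band is thinnest with shAD4-1.

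The other MCM genes also rose. Mcm8, which acts with MCM9 in recombination and fork repair and is no part of the ring, read 19.1, 17.4 and 17.3 CPM with shControl, 30.2, 32.0 and 29.7 CPM with shAD4-1 and 37.1, 37.9 and 38.5 CPM with shAD4-2. The 3 groups were separate, with rises of 0.77 ± 0.0631 (adjusted p = 4.33e-09) and 1.08 ± 0.0628 (adjusted p = 3.35e-11). Mcm10, a scaffold needed to start unwinding, rose by 0.27 and 0.74.

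Among the factors that switch the helicase on, Cdc45, a fixed part of the moving helicase, led. Its libraries read 18.5, 18.0 and 16.3 CPM with shControl, 30.5, 31.3 and 29.8 CPM with shAD4-1, and 43.9, 44.1 and 43.7 CPM with shAD4-2. The SD of the shAD4-2 libraries was 0.213 CPM. The rises were 0.80 ± 0.0624 (1.74-fold, adjusted p = 2.43e-09) and 1.32 ± 0.0617 (2.5-fold, adjusted p = 1.56e-12), with a difference of 0.52 ± 0.0588 between the hairpins (adjusted p = 5.43e-06).

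The 4 GINS genes, which encode the ring that joins CDC45 to the MCM helicase, were all higher with shAD4-2, by 0.46 to 0.71, where 34.2% of all tested genes were called higher. With shAD4-1 only Gins2 (0.38) and Gins4 (0.24) passed the test, and Gins1 and Gins3 were at 0.19 and 0.11 without passing. The call of Gins4 was lost without replicate 3 of shAD4-1 (adjusted p = 0.0557). Their summed level was 27.6 ± 1.26, 31.2 ± 1.69 and 38.8 ± 1.33 FPKM in the 3 groups. Gins1, Gins2 and Gins3 had few reads, at 7.94, 4.90 and 9.80 CPM on average with shControl (4.17 to 5.08 FPKM). Their errors are wider than those of most members.

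The kinase that fires origins was split. Dbf4, its regulatory subunit, rose by 0.15 and 0.34, the former not past the threshold without replicate 3 of shAD4-1 (adjusted p = 0.0588). Cdc7, the catalytic subunit, did not pass the test in any comparison, with 13.0, 13.9 and 12.9 CPM with shControl, 11.3, 12.1 and 11.9 CPM with shAD4-1 and 11.8, 12.2 and 12.3 CPM with shAD4-2. All 6 hairpin libraries of Cdc7 lay under the lowest control library, with changes of -0.18 (95% interval -0.35 to -0.00, adjusted p = 0.0686) and -0.13 (-0.31 to 0.04, adjusted p = 0.16). Cdc7 was called lower with shAD4-1 under upper-quartile scaling (adjusted p = 0.0431), and with each hairpin in all 3 limma fits on FPKM (adjusted p = 0.00514 to 0.00892 and 0.0156 to 0.022).

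At the fork, the clamp and its loader went different ways. Pcna, the sliding clamp and the most abundant of the 59 transcripts per length on average over all libraries, read 137, 133 and 128 CPM with shControl, 173, 176 and 168 CPM with shAD4-1 and 206, 217 and 203 CPM with shAD4-2. Its groups were separate, with rises of 0.38 ± 0.0403 (1.30-fold, adjusted p = 1.54e-07) and 0.66 ± 0.0403 (1.58-fold, adjusted p = 6.78e-11), and a difference of 0.28 ± 0.0398 between the hairpins (adjusted p = 5.98e-05).

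The RFC clamp loader, 5 subunits that open the clamp and close it around DNA, summed to 112.8 ± 2.29 FPKM with shControl, 95.1 ± 1.79 FPKM with shAD4-1 and 109.9 ± 5.24 FPKM with shAD4-2. Rfc2 and Rfc5 were the only members called lower with each hairpin. Rfc5 read 34.9, 31.5 and 30.9 CPM with shControl, 25.5, 23.6 and 23.7 CPM with shAD4-1 and 28.3, 27.5 and 27.6 CPM with shAD4-2. All hairpin libraries of Rfc5 lay under the controls, with falls of -0.42 ± 0.0639 (adjusted p = 1.49e-05) and -0.22 ± 0.0637 (adjusted p = 0.00488). Rfc2 read 59.4, 61.9 and 59.4 CPM, then 48.7, 50.05 and 49.1 CPM, then 54.9, 58.6 and 50.4 CPM in the same order of groups. The groups shAD4-1 and shControl were well apart for Rfc2 (-0.29 ± 0.0544, adjusted p = 0.000133). The shAD4-2 libraries were more scattered (-0.14 ± 0.0543, adjusted p = 0.0295), and that call was lost without replicate 2 of shControl (adjusted p = 0.136), without replicate 3 of shControl (0.0507), or without replicate 1 (0.0648) or replicate 3 (0.245) of shAD4-2. It was also lost with no filter on low counts (0.0504) and with only the 2 groups compared (0.062).

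Rfc3, shown above with an octamer close to its start, did not pass the test in any comparison. It read 18.9, 18.8 and 18.9 CPM with shControl, 17.9, 17.6 and 16.7 CPM with shAD4-1, and 20.9, 21.3 and 17.7 CPM with shAD4-2. Its changes were -0.12 (95% interval -0.28 to 0.05, adjusted p = 0.204) and 0.08 (-0.08 to 0.25, adjusted p = 0.345). Other settings called it lower with shAD4-1 (limma fits on FPKM with a filter) or higher with shAD4-2 than with shAD4-1. Rfc1, the large subunit, rose by 0.14 and 0.25, the former at 0.0753 to 0.0793 and not called in the limma fits (adjusted p = 0.125 to 0.146), and Rfc4 rose by 0.23 with shAD4-2 after -0.14 with shAD4-1 (adjusted p = 0.0584).

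The polymerases also differed from each other. All 4 genes of polymerase alpha and primase, which lay down the RNA-DNA primers, were higher with shAD4-2, by 0.44 (Pola2) to 0.75 (Prim2), beside 34.2% of all tested genes. Only Pola1 (0.36) and Prim2 (0.30) were also called with shAD4-1. All 4 were higher with shAD4-2 than with shAD4-1, by 0.21 to 0.52, beside 13.4% of all tested genes. Their summed level was 34.2 ± 2.17 FPKM with shControl, 36.6 ± 0.248 FPKM with shAD4-1 and 49.5 ± 0.557 FPKM with shAD4-2.

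Polymerase epsilon, which copies the leading strand, had its catalytic subunit Pole higher by 0.64 and 0.94 and Pole2 higher by 0.42 and 0.79, while the histone-fold subunit Pole3 fell by 0.22 on the log2 scale with shAD4-1 and was at -0.13 without passing with shAD4-2. Polymerase delta, which makes the lagging strand, had no subunit called higher with shAD4-1. Its catalytic subunit Pold1 read 21.6, 22.7 and 24.0 CPM with shControl, 24.3, 22.4 and 22.4 CPM with shAD4-1 and 23.3, 24.7 and 24.3 CPM with shAD4-2. These libraries overlapped, and the changes of 0.01 (95% interval -0.13 to 0.16, adjusted p = 0.859) and 0.08 (-0.06 to 0.22, adjusted p = 0.298) both have intervals that hold 0. Pold2, an accessory subunit, read 32.0, 35.3 and 35.9 CPM, then 34.8, 36.4 and 32.9 CPM, then 33.8, 30.4 and 34.9 CPM, with changes of 0.01 (-0.13 to 0.15, adjusted p = 0.894) and -0.06 (-0.20 to 0.08, adjusted p = 0.455).

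Pold3, the subunit that binds PCNA, went in opposite directions with the hairpins. It read 38.7, 33.3 and 33.2 CPM with shControl, 31.4, 30.1 and 29.5 CPM with shAD4-1 and 40.2, 41.9 and 38.8 CPM with shAD4-2. Replicate 1 of shControl stood above its fellows, next to the lowest shAD4-2 library. The change was -0.21 ± 0.0658 with shAD4-1 (adjusted p = 0.0103) and 0.20 ± 0.0651 with shAD4-2 (adjusted p = 0.0102), and the hairpins differed by 0.41 ± 0.0656 (adjusted p = 0.000175). Without that control library the change with shAD4-1 was -0.12 and no longer passed (adjusted p = 0.073).

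RPA, the 3-subunit complex that coats single-stranded DNA, became less uneven in its transcripts. Rpa2, the subunit that checkpoint kinases phosphorylate, read 11.9, 11.0 and 10.0 CPM with shControl, 22.0, 19.5 and 24.4 CPM with shAD4-1, and 32.1, 30.9 and 31.4 CPM with shAD4-2. Each group lay clear of the others, with rises of 1.00 ± 0.0871 (2.00-fold, adjusted p = 1.04e-08) and 1.52 ± 0.086 (2.87-fold, adjusted p = 2.22e-11), and a difference of 0.52 ± 0.0805 (adjusted p = 0.000134). Rpa1, the large DNA-binding subunit, rose by 0.24 and 0.37. Rpa3, the smallest, was at -0.06 with shAD4-1 and fell by 0.14 on the log2 scale with shAD4-2 (adjusted p = 0.0332), a call that was lost without replicate 1 of shControl (adjusted p = 0.227), replicate 2 of shAD4-2 (0.0965) or replicate 3 of shAD4-2 (0.106). The call of Rpa3 was also lost in DESeq2 (0.0502), with no filter on low counts (0.0559) and with only the 2 groups compared (0.0627). Rpa2 thus went from 4.38% of the complex's summed FPKM to 8.02% and 11.0%, and the ratio of the highest to the lowest subunit went from 12.9 to 6.22 and 4.07.

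Okazaki fragments are finished by removing the primer and joining the ends. Fen1, the flap nuclease, read 26.8, 24.7 and 23.3 CPM with shControl, 20.2, 19.7 and 18.9 CPM with shAD4-1 and 30.0, 28.7 and 25.6 CPM with shAD4-2. The shAD4-1 libraries lay below all others, with a fall of -0.35 ± 0.0748 (adjusted p = 0.000509). The shAD4-2 libraries overlapped the controls, and their rise of 0.17 ± 0.0734 (adjusted p = 0.042) was lost on leaving out replicate 2 (adjusted p = 0.0783) or 3 (0.138) of shControl, replicate 2 of shAD4-1 (0.0508), or replicate 1 (0.186) or 2 (0.106) of shAD4-2. That rise was also lost under upper-quartile scaling (0.0918) and with only the 2 groups compared (0.0556). The hairpins differed by 0.52 ± 0.0745 (adjusted p = 5.69e-05). Lig1, the ligase, was at -0.11 with shAD4-1 (adjusted p = 0.0671) and rose by 0.34 with shAD4-2, and Rnaseh2a, the catalytic subunit of a nuclease that removes ribonucleotides from DNA, rose by 0.34 and 0.37.

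In nucleotide supply, ribonucleotide reductase shifted toward its small subunit. Rrm2, the subunit that limits the enzyme in S phase, read 102, 89.6 and 89.6 CPM with shControl, 151, 150 and 154 CPM with shAD4-1 and 249, 245 and 250 CPM with shAD4-2. The groups were widely separate. Rrm2 rose by 0.70 ± 0.046 (1.62-fold, adjusted p = 2.37e-10) and 1.41 ± 0.046 (2.65-fold, adjusted p = 9.68e-15). The difference between the hairpins, 0.71 ± 0.0448 or 1.64-fold (adjusted p = 7.85e-09), was the largest among the 59 genes. Rrm1, the large subunit, was at 186 ± 2.00 CPM with shControl and 189 ± 5.74 CPM with shAD4-1 (0.02, 95% interval -0.06 to 0.09) and rose by 0.37 with shAD4-2. In FPKM, Rrm2 was 47.9% of the pair with shControl, 59.6% with shAD4-1 and 65.4% with shAD4-2.

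Tyms and Tk1 give thymidylate by separate routes, synthesis and salvage, and they did not move together. Tyms, thymidylate synthase, read 20.4, 15.9 and 13.1 CPM with shControl, 23.6, 25.4 and 24.7 CPM with shAD4-1 and 35.1, 33.6 and 31.0 CPM with shAD4-2. It was scattered in the controls but lower there than in every hairpin library, and it rose by 0.58 (adjusted p = 0.000123) and 1.02 (adjusted p = 1.16e-07). Tk1, thymidine kinase, read 25.8, 25.6 and 22.1 CPM with shControl, 15.9, 17.3 and 17.6 CPM with shAD4-1 and 23.3, 23.4 and 21.9 CPM with shAD4-2. It had the largest fall with shAD4-1, by 0.53 on the log2 scale or 1.44-fold (adjusted p = 7e-06), and overlapped the controls with shAD4-2 (-0.10, adjusted p = 0.264). These 2 genes are shown per library because of their values, outside the rule for the other genes. Dut, which removes dUTP, rose by 0.20 and 0.28.

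Behind the fork, new DNA is wrapped in histones and its methylation is copied. Slbp, which binds the stem-loop of histone transcripts, read 46.3, 38.2 and 40.4 CPM with shControl, 78.3, 81.0 and 80.9 CPM with shAD4-1, and 97.1, 96.3 and 97.6 CPM with shAD4-2. No groups overlapped, and the rises were 0.94 ± 0.057 (1.92-fold, adjusted p = 6.6e-11) and 1.22 ± 0.057 (2.33-fold, adjusted p = 1.56e-12). Uhrf1, which brings the maintenance methyltransferase to new DNA, rose by 0.16 and 0.47. Its call with shAD4-1 (adjusted p = 0.0173) came with libraries that overlapped the controls, and was lost without replicate 2 of shControl (0.0669) or replicate 1 (0.107) or 3 (0.0512) of shAD4-1.

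Chaf1a and Chaf1b encode subunits of CAF-1, which places histones on new DNA. Chaf1a read 44.2, 42.3 and 43.1 CPM with shControl, 36.6, 35.8 and 38.2 CPM with shAD4-1, and 48.6, 53.0 and 49.0 CPM with shAD4-2. The control libraries lay between the others with no overlap, with changes of -0.23 ± 0.0544 (adjusted p = 0.00128), 0.22 ± 0.0538 (adjusted p = 0.00157) and, between the hairpins, 0.44 ± 0.0543 (adjusted p = 1.14e-05). Its exons share 4648 bases with Ubxn6 on the opposite strand in the GRCm38 annotation. The strand setting of the counting is not known from the sources used here, and without it the reads of the pair cannot be told apart. Ubxn6 itself changed by 0.18 (adjusted p = 0.0145) with shAD4-1 and 0.04, not called, with shAD4-2. Chaf1b was at 0.08 with shAD4-1, not called, and rose by 0.25 with shAD4-2.

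Fork protection genes were higher with shAD4-2 in all 4 cases and with shAD4-1 in 3, where 48 and 32 of the 59 members were. Over all tested genes the shares were 34.2% and 32.7%. Clspn, or claspin, which carries the checkpoint signal at stalled forks, read 17.6, 16 and 17.6 CPM with shControl, 29.7, 27.9 and 27.5 CPM with shAD4-1 and 39.5, 38.8 and 37.2 CPM with shAD4-2. The groups did not overlap, with rises of 0.73 ± 0.0647 (adjusted p = 1.26e-08) and 1.17 ± 0.0641 (adjusted p = 1.33e-11). Wdhd1, also known as AND-1, which ties polymerase alpha to the helicase, read 24.2, 22.8 and 23.5 CPM, then 28.9, 28.1 and 31.4 CPM, then 45.8, 41.7 and 44.5 CPM. Its shAD4-2 libraries stood well above the rest, with changes of 0.33 ± 0.0633 (adjusted p = 0.000178) and 0.91 ± 0.0624 (adjusted p = 3.43e-10), and a difference of 0.58 ± 0.0612 between the hairpins (adjusted p = 3.14e-06). Timeless rose by 0.60 and 0.93. Its partner Tipin was at 0.12 with shAD4-1, not called, and rose by 0.28 with shAD4-2.

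**Figure D3:**
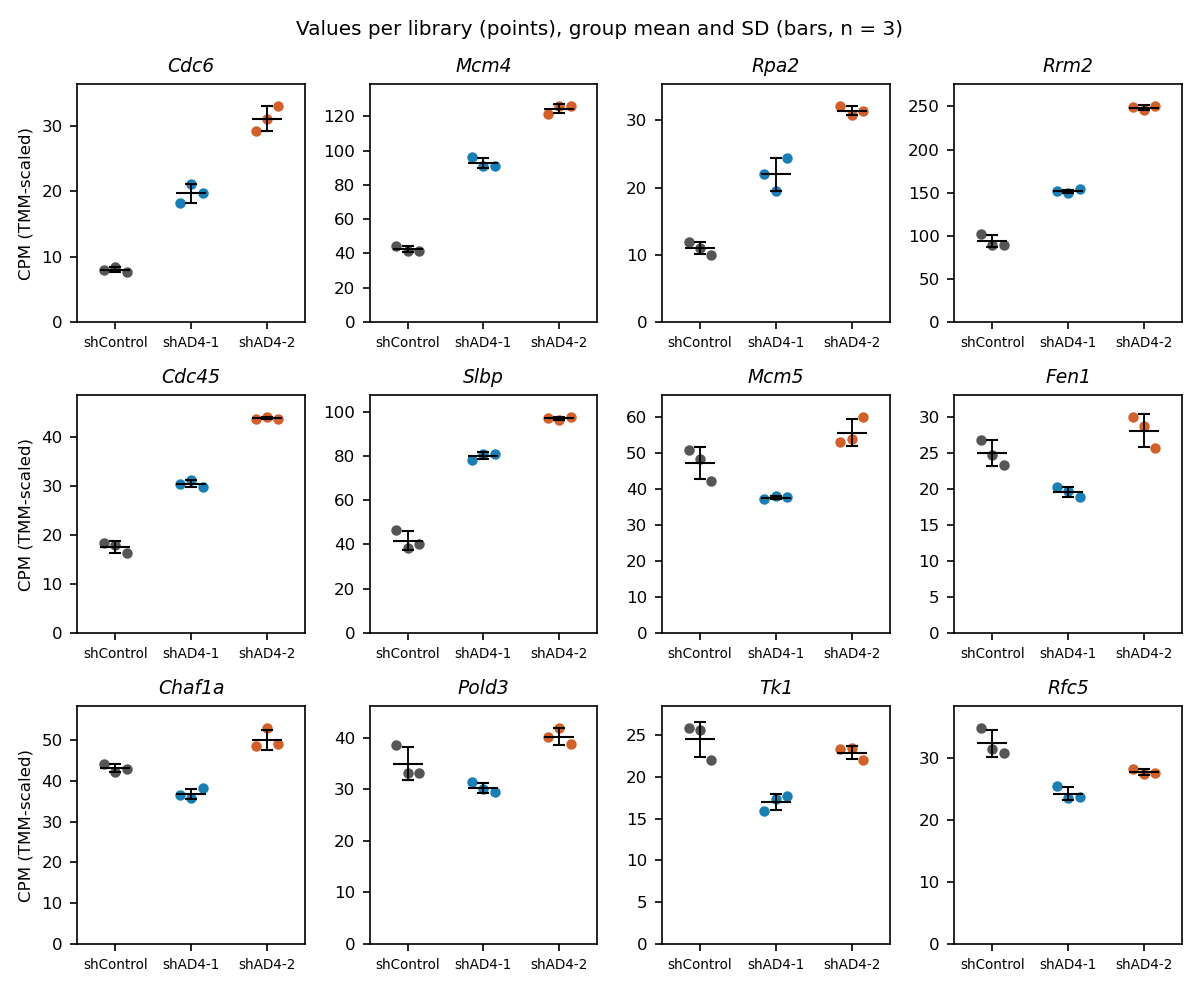
TMM-scaled CPM of 12 replication genes in each library (points), with group mean and SD (bars, n = 3), each panel starting at 0. Cdc6, Mcm4, Rpa2, Rrm2, Cdc45 and Slbp climb in separate steps from shControl to shAD4-1 to shAD4-2, Mcm5, Chaf1a and Pold3 are lowest with shAD4-1 and highest with shAD4-2, as are the means of Fen1, and Tk1 and Rfc5 are lowest with shAD4-1.

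Overlapping gene models touch other members as well. In the GRCm38 annotation the exons of 22 of the 59 genes overlap those of another gene, for 16 a gene of the count table, in all 16 cases on the opposite strand. After Chaf1a, the longest overlaps with a gene of the table were those of Gins2 with Gse1 (2758 bases; 0.11, not called, and 0.26), Orc2 with Nif3l1 (1150 bases; 0.15 and 0.42) and Rfc2 with Lat2 (952 bases; 1.01 and 0.55, the latter not called), where the changes are those of the neighbour with shAD4-1 and shAD4-2. Next came Rfc5 with Wsb2 (499 bases, -0.18 and -0.15), Orc4 with Acvr2a (446 bases, -0.23 and -0.26), Orc1 with Gm12743 (376 bases, -1.52 and -1.81) and Mcm7 with Ap4m1 (321 bases, 0.51 and 0.87). Some neighbours thus moved with the member and others against it. Among shorter overlaps, Orc6 shares 171 bases with Vps35 (-0.38 and -0.30), and Tk1 shares 83 bases with Afmid (-0.62 and -0.74). The part of these neighbours in the members' changes was not tested.

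Replication genes outside the set were compared as a list of 40, of which 39 were tested. With shAD4-1, 21 were higher and 6 lower, with a median of 0.22 (log2), and with shAD4-2, 28 were higher and 4 lower, with a median of 0.31. The shares over all tested genes, for this list and the next 2, were 32.7% higher and 32.3% lower with shAD4-1, and 34.2% and 34.8% with shAD4-2. Recql4, a helicase needed for origin firing, rose by 1.19 and 1.34, from 13.6 ± 0.470 CPM to 30.9 ± 1.76 and 34.4 ± 1.19 CPM. Nasp, a histone chaperone, rose by 0.70 and 0.98, and Hells, a chromatin remodeller, by 0.59 and 0.74. Skp2, a ubiquitin ligase subunit that targets p27, rose by 0.57 and 0.70, and Asf1b, another histone chaperone, by 0.36 and 0.88.

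A list of 18 further nucleotide supply genes had 10 higher and 3 lower with shAD4-1 (median 0.19) and 12 higher and 4 lower with shAD4-2 (median 0.30), beside those same shares of all tested genes. Samhd1, which breaks down deoxynucleotides, was among the lower genes. It went from 137 ± 6.52 CPM to 75 ± 5.65 and 72.3 ± 0.920 CPM, falls of -0.88 (adjusted p = 5.12e-11) and -0.93 (adjusted p = 2.11e-11). Shmt1, of folate metabolism, rose by 0.80 and 0.88. Umps, of pyrimidine synthesis, rose by 0.53 and 0.81, Ppat, of purine synthesis, by 0.53 and 0.65, and Nme1, a nucleoside diphosphate kinase, by 0.47 and 0.66.

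Of 24 genes of mitosis tested, 9 were higher and 11 lower with shAD4-1 than with shControl, beside 32.7% and 32.3% over all tested genes. The median of the 24 was -0.02, and 4 were not called. With shAD4-2, 17 were higher and 3 lower, with a median of 0.39, beside 34.2% and 34.8%. All 24 were higher with shAD4-2 than with shAD4-1, where 13.4% of all tested genes were, with a median difference of 0.43. Mki67, which encodes the proliferation antigen Ki-67, went from 251 ± 9.49 CPM to 144 ± 2.35 and 190 ± 2.19 CPM, falls of -0.80 (adjusted p = 2.16e-12) and -0.40 (adjusted p = 2.1e-08). Ccnb2, a mitotic cyclin, fell by 0.70 on the log2 scale with shAD4-1 and by 0.18 on the log2 scale with shAD4-2, while the related Ccnb1 rose by 0.56 and 1.01. Dlgap5, a spindle protein, rose by 0.70 and 1.45, and Tpx2, another, by 0.37 and 0.76. Top2a, which untangles DNA and stands in both the replication and the mitosis list, rose by 0.22 and 0.64.

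**Figure D4:**
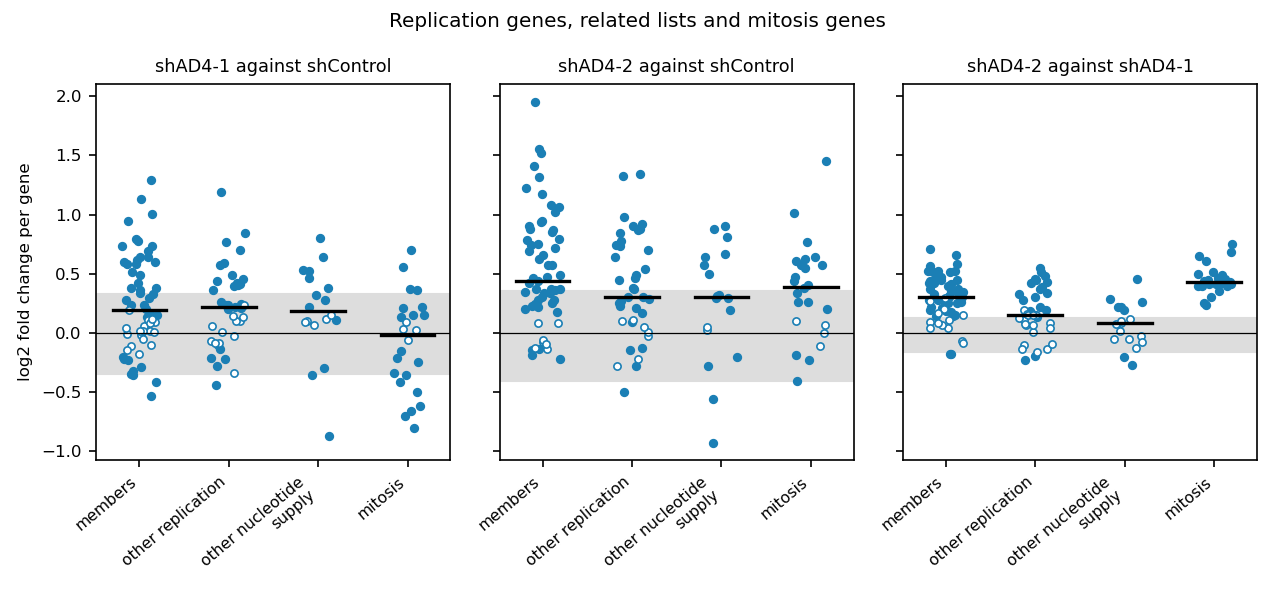
Log2 fold change of each gene (points, open where not called) for the 59 replication genes, other replication genes, other nucleotide supply genes and mitosis genes in the 3 comparisons, with list medians as bars and the middle 50% of all tested genes as a grey band. The mitosis median lies at -0.02 with shAD4-1 and 0.39 with shAD4-2, while the median of the 59 genes is above 0 in each panel, at 0.19, 0.44 and 0.30.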

How the data were processed

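The authors deposited whole-number read counts per gene and FPKM for the same 9 libraries. Per the labels' protocols the kit was VAHTS Universal V6, and fastp, HISAT2, HTSeq and the build GRCm39 are named, without versions, per the submitters' processing notes. Columns named Con, KD1 and KD2 were matched to the hairpins by number. Counts were fitted over all tested genes with edgeR 4.0.16 in R 4.3.3 (filterByExpr, TMM, glmQLFit and glmQLFTest, group as the only term, 9 libraries). The 13807 genes kept hold 99.968% of the reads, and the common coefficient of variation was 5.15%. Benjamini-Hochberg adjustment ran over these genes, with a threshold of 0.05 and no minimum fold. SE is |log2 fold change| over the root of F, and intervals are at 95%. The p-values measure the spread between libraries of 1 derivative per hairpin. CPM are TMM-scaled, while FPKM, used to compare genes per length, are as the authors deposited them and are not. Reads shared with near-identical copies may have been divided or left out.

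The members, lists and markers were chosen with earlier results of these data known. Values per library are given for the 8 largest called changes against shControl with each hairpin, the 6 largest each way between hairpins, members called in opposite directions, called lower with both or called with neither, and the highest and lowest in mean FPKM, and up to 4 genes per further list are named by smallest adjusted p. Alternatives were other scalings, filters, DESeq2 1.42.0, limma 3.58.1 on log2 FPKM, a fit of only the 2 groups compared, a replicate block, no mitochondrial genes and each library left out. The fit was tested on simulated data. Sequences are from RefSeq. Promoter entries for 9 members were not used here.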

Additional observations from a re-analysis of the deposited data

How the results depend on the processing

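The analysis was repeated under 20 alternatives, 9 of which left out a library. No called member changed direction in any of them. Members called higher ranged from 26 to 35 with shAD4-1, 45 to 48 with shAD4-2 and 37 to 49 between the hairpins. The count lower with shAD4-2, 4 in the report, was 2 with no filter on low counts, 2 in the fit of only the 2 groups compared, and 7 in each of the 3 limma fits on FPKM. The count lower with shAD4-2 than with shAD4-1, 2 in the report, was 1 in each limma fit and 1 to 2 with each library left out. On log2(FPKM + 1), with or without the filter, 1 member was at least 2-fold higher with shAD4-1 and 6 with shAD4-2, in place of 3 and 10, and on log2(FPKM + 0.1) 2 and 9. These fits change the scaling, the model and the pseudocount at once, and the cause was not tested. Without single libraries these counts were 2 to 4 and 9 to 11. The members' median log2 change with shAD4-1 was 0.11 to 0.22 over the alternatives. With shAD4-1 the calls of Rfc1, Dbf4 and Uhrf1 were lost in all 3 limma fits, and those of Orc1, Gins4 and Dut in the limma fit with no filter. Rises called with shAD4-2 were lost in a limma fit for Pold3 (adjusted p = 0.066 to 0.125), Fen1 (0.156 to 0.266) and Mcm5 (0.0824), and the cause was not tested. Between the hairpins Orc4 was lost in all 3 limma fits, and Mcm2, Mcm7, Gins4, Rfc5, Pole2, Tyms and Tipin in that with no filter. Calls were also gained: the limma fits added Cdc7, Rfc4 and Lig1 (lower) with shAD4-1 and Orc5, Cdc7 and Pole3 (lower) with shAD4-2. The tested genes as a whole shifted too in the filtered limma fit on log2(FPKM + 1). Their median shift from the main fit was -0.0556 with shAD4-1, -0.0538 with shAD4-2 and 0.002 between the hairpins. Of all genes called with shAD4-1, 43.1% were higher in place of 50.3%, and with shAD4-2 44.7% in place of 49.6%. The part of this shift in the members' lost and gained calls was not tested. Same-numbered libraries did not deviate together across genes (correlations of -0.124 to 0.00225), and differently numbered libraries had correlations of -0.0694 to 0.11. Deviations from means of 3 libraries cannot show whether same-numbered libraries were handled together. With the replicate block the 41, 52 and 46 called members kept their calls, none was added, and the counts stayed 32 higher and 9 lower, 48 and 4, and 44 and 2. At these depths the SEs with shAD4-1 were 0.142 for Orc1 and 0.117 for Gins1 and Gins2.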
